A study of Mus musculus with 2 samples.

Results

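Collagens and dermal matrix genes were followed in epidermis that had been lifted off the back skin of 5-day-old mice, in order to see which of these transcripts the epidermis itself contributed, which came with it from the dermis, and whether either kind differed when keratinocytes lacked the calcium-sensing receptor. The members were the genes whose probe symbol began as a collagen chain symbol (Col, a type number and a chain), apart from Col17a1, together with Vim, Bgn, Dcn, Lum, Sparc, Fn1, Fbln1 and Fbln2. They came to 44 genes with 68 probes, of 18036 genes with 25697 probes on the array. Fn1 had no probe in the table used here. The symbol Col4a3bp also begins like a collagen, but the gene (now Cert1) encodes a ceramide transfer protein, and its 3 probes were left out.

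The knockout sample was epidermis of C57BL6 mice with floxed CaSR (Casr) alleles and a Cre recombinase driven by the K14 promoter, which is active in basal keratinocytes. The control sample was epidermis of littermates with floxed alleles, labelled CaSR fl/fl CON. Both were taken at postnatal day 5, the epidermis was separated from the dermis with dispase, and RNA of 3 mice was pooled for each sample, so each genotype was represented by 1 pool on 1 Illumina bead array. No value therefore has a replicate error, no test was made, and precision is limited by the number of arrays. One sentence in the labels' protocols, the one on combining the RNA, mentions a VDR knockout, whereas the other labels of both samples name CaSR. The design text gives an n of 3 per group while the data hold 1 array per group, so each group was treated as 1 pooled sample.

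Collagens are triple-helical proteins. Fibroblasts of the dermis assemble types I, III and V into fibrils, and collagen VI, fibril-associated collagens and small proteoglycans such as decorin and biglycan lie on and between these fibrils. The epidermis rests on a basement membrane of type IV collagen, laminins, nidogen and perlecan, to which keratinocytes contribute, and type VII collagen from keratinocytes forms the anchoring fibrils that tie it to the dermis. Dispase cleaves components of this basement membrane zone, and lifted epidermal sheets can carry some dermal cells.

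A probe counted as detected where the deposited detection p-value was at most 0.01, and each gene was represented by its brightest detected probe. Probes were detected in similar numbers on the 2 arrays, 10802 (42.0%) in the knockout sample and 10888 (42.4%) in the control sample. Detected genes numbered 8564, with a median log2 ratio (knockout over control) of 0.01. All 10 keratinocyte markers were detected in both samples. The Casr probe, listed as Gprc2a, was not above background in either sample (148.2 in the knockout and 122.9 in the control sample), and since its place relative to the deleted exons is unknown here, it does not check the genotype labels. Where a gene had several probes detected in both samples (1840 genes), their log2 ratios scattered with an SD of 0.11, and a spread of 2 SDs amounts to 1.17-fold. This SD was taken within the same pair of pools and holds no variation between mice or pools.

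Of the 44 members, 21 (47.7%) were detected in at least 1 sample, against 47.5% of all genes on the array, and 19 were detected in both. Detection is given here by the role of the gene. In the fibrillar class, 2 of 6 genes were detected, Col1a1 and Col5a1, both in both samples. Col1a2, Col3a1 and Lum, also transcripts of dermal fibroblasts, were at background in both samples. The fibrillar, collagen VI and fibril-associated, and dermal matrix classes together held 20 genes. Of these 12 were detected in both samples, among them Dcn, Sparc and Bgn, also made by fibroblasts. Col1a2, the second chain of type I collagen, had a normalised intensity of 144.1 in the knockout sample and 147.7 in the control sample. Col3a1, the type III chain, had 135.9 in the knockout and 134.8 in the control sample on the brighter of its 2 probes. Lum, which encodes the fibril-binding proteoglycan lumican, had 139.4 in the knockout and 148.7 in the control sample. None of these values reached the lowest detected signal, which was 165.9 on the knockout array and 164.9 on the control array. Col5a2, Col5a3, Col6a2, Col6a6 and Col19a1 were likewise detected in neither sample.

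Col1a1, the main chain of type I collagen, was detected in both samples but lay at the edge of detection. Its 1 probe gave 169.3 in the knockout and 169.7 in the control sample (log2 ratio -0.003), with a detection p-value of 0.0025 in the knockout sample and 0.0050 in the control sample. A signal this near the background says little about a difference between the samples, because background left in the intensities draws ratios of dim probes towards 1. An array cannot set the level of 1 probe against another, so these values show which transcripts were detectable and not how abundant they were relative to each other.

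Of the collagens that keratinocytes make, 4 of 5 were detected, all 4 in both samples. The exception was Col23a1, a membrane-bound collagen, with 147.4 in the knockout sample and 154.0 in the control sample. In the dermal matrix class 6 of 7 genes were detected, and in the class of collagen VI and fibril-associated chains 4 of 7. Among cartilage and other collagens 3 of 15 were detected, of which Col28a1 was detected in both samples, Col25a1 in the knockout sample and Col9a2 in the control sample. The 12 members of this class detected in neither sample were Col2a1, Col4a3, Col4a4, Col9a1, Col9a3, Col10a1, Col11a1, Col11a2, Col13a1, Col24a1, Col26a1 and Col27a1. Over all 30 probes of the 23 undetected members the intensities lay between 118.9 and 156.7 in the knockout sample and between 122.1 and 158.5 in the control sample.

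**Figure D1:**
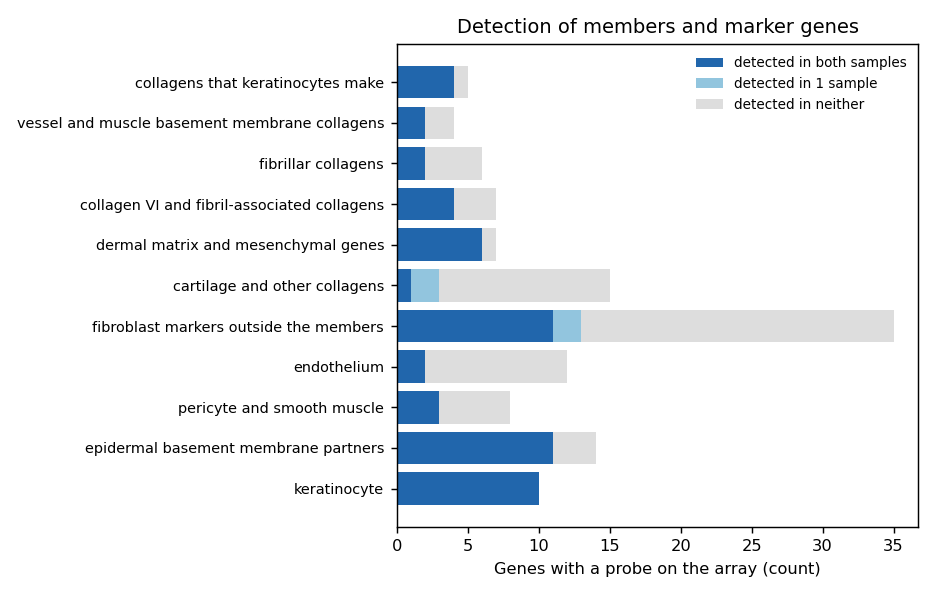
Number of genes with a probe on the array (horizontal axis) for each class of members and for lists of fibroblast, endothelial, pericyte, basement membrane and keratinocyte genes, split into genes detected in both samples, in 1 sample and in neither. Fibrillar collagens (2 of 6 detected), fibroblast markers (13 of 35) and endothelial markers (2 of 12) were mostly undetected. Dermal matrix genes (6 of 7) and collagen VI and fibril-associated chains (4 of 7) were mostly detected, and all 10 keratinocyte markers were detected in both samples. Of all genes on the array 47.5% were detected.

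Between the samples the members differed little. No member reached a 1.5-fold difference, against 0.420% of all detected genes in either direction. At the smaller size of 1.2-fold, 1 of the 21 detected members was higher in the knockout sample (2.91% of all detected genes were) and 0 were lower (2.95% of all detected genes were), together 1 of 21 against 5.86% of all detected genes, so the share of members was near that of all genes. The member past this size was Col18a1. By sign, 14 of 21 had a log2 ratio above 0, against 52.1% of all detected genes, and the median over the 21 was 0.10, against 0.01 over all detected genes. In epidermis measured in bulk, fewer cells of a type and less RNA per cell cannot be told apart.

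**Figure D2:**
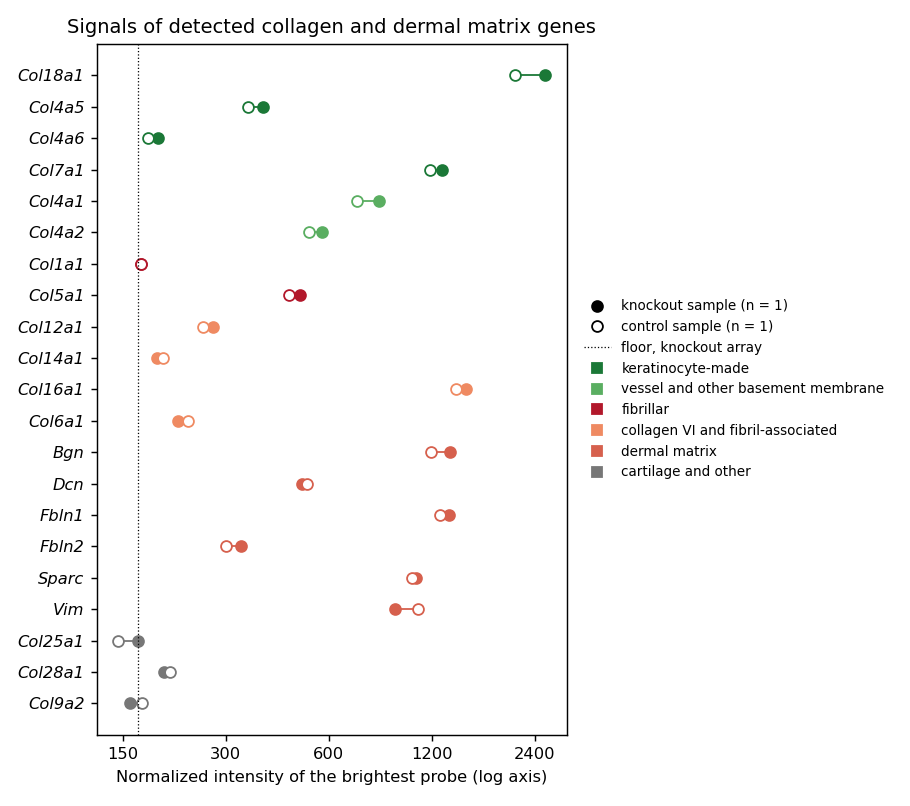
Normalised intensity (log axis) of the brightest probe of each of the 21 detected members, with filled points for the knockout sample, open points for the control sample and colours for the class of the gene. The filled point lies to the right for all keratinocyte-made collagens and for Col4a1 and Col4a2, to the left for Vim, and the points of Col1a1 coincide beside the floor of 165.9.

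The collagens that keratinocytes make had higher signals in the knockout sample, by small amounts. Log2 ratios of all 4 detected genes lay above 0 (52.1% of all detected genes were) with a median of 0.13. Their summed intensity was 4437 in the knockout and 3809 in the control sample, and most of this difference came from the brightest Col18a1 probe. Col18a1, whose product is a heparan sulphate collagen of basement membranes and the source of endostatin, had 2578 in the knockout and 2101 in the control sample, a 1.23-fold higher signal (log2 ratio 0.30). Its other detected probe gave 219.8 in the knockout and 211.4 in the control sample (log2 ratio 0.06), so the size of the difference depended on the probe, and averaged over detected probes the log2 ratio was 0.18. Col7a1, the anchoring fibril collagen, had 1283 in the knockout and 1184 in the control sample (log2 ratio 0.12), and on its other probe 182.0 in the knockout and 175.0 in the control sample (log2 ratio 0.06). Of these genes Col18a1 alone lay past the 1.17-fold spread between probes.

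The remaining keratinocyte-made chains were those of the type IV network found under the epidermis. Col4a5 had 385.6 in the knockout and 347.3 in the control sample (log2 ratio 0.15). Col4a6 was dimmer, with 189.7 in the knockout sample and 177.2 in the control sample (log2 ratio 0.10). A second Col4a6 probe was detected in the control sample with 172.1 and not in the knockout sample with 159.4, which gives a bound of -0.05 on the log2 ratio, so its 2 probes pointed in opposite directions.

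Col4a1 and Col4a2, which encode the chains of the type IV network common to nearly all basement membranes, those of vessels included, also had higher signals in the knockout sample. Col4a1 had 839.6 in the knockout and 727.2 in the control sample (1.15-fold, log2 ratio 0.21). Col4a2 had 572.6 in the knockout and 524.9 in the control sample (1.09-fold, log2 ratio 0.13). Both differences lay within the 1.17-fold spread between probes. The other members of the class of vessel and muscle basement membrane collagens, Col15a1 and Col8a2, were detected in neither sample. The class name does not give the source of the signals. Keratinocytes also contribute to the type IV basement membrane under the epidermis, and which cells gave the Col4a1 and Col4a2 signals was not tested. Of 12 endothelial markers 2 were detected, Egfl7 with a log2 ratio of 0.04 and Ramp2 with 0.01, and Pecam1, Cdh5, Kdr and Vwf were among the 10 detected in neither sample.

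Type IV collagen genes lie in head-to-head pairs, and the promoters of the 2 pairs detected here are shown to set the paired chains beside their values. Col4a1 and Col4a2 both had log2 ratios above 0, as did the brightest probes of Col4a5 and Col4a6, although the second Col4a6 probe pointed the other way. The windows run from 250 bases before to 50 bases after the annotated start, 5′ to 3′ on the strand of the gene, from RefSeq on GRCm38.p6. The Col4a1 window is chr8:11312777-11313076 on the minus strand and the Col4a2 window is chr8:11312555-11312854 on the plus strand, and capitals mark the 78 bases that both windows hold, once on each strand.
Col4a1: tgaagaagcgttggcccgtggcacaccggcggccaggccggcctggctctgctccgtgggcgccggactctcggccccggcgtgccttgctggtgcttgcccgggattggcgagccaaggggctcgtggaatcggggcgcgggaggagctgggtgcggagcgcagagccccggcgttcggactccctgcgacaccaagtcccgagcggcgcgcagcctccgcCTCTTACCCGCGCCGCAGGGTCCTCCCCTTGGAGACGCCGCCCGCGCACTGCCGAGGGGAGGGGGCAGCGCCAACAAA
Col4a2: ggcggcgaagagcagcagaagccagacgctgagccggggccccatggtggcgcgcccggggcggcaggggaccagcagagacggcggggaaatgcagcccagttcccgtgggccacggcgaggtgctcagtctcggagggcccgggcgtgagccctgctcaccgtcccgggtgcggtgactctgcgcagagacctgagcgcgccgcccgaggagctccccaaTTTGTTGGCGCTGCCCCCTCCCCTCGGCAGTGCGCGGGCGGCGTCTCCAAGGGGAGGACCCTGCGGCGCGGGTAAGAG

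The Col4a5 window is chrX:141475169-141475468 on the plus strand and the Col4a6 window is chrX:141474027-141474326 on the minus strand, with 842 bases between them, and capitals mark matches on either strand to the CCAAT box, the GC box GGGCGG or the letters TATAA.
Col4a5: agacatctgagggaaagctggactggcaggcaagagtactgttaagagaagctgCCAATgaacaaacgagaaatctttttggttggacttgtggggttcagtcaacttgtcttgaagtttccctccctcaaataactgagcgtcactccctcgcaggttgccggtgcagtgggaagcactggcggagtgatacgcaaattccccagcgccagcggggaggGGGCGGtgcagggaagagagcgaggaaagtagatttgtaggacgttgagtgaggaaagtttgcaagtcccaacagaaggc
Col4a6: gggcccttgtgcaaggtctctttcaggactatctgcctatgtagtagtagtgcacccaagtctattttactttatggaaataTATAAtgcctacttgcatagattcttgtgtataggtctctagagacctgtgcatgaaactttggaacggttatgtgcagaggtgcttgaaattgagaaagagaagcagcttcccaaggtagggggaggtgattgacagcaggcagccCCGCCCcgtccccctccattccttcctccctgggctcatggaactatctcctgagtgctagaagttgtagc
The Col4a5 window held 1 CCAAT and 1 GGGCGG match, and the Col4a6 window 1 GGGCGG and 1 TATAA match. The Col4a1 window held 1 CCAAT and 1 GGGCGG match, and the Col4a2 window 1 CCAAT and 3 GGGCGG matches. Windows were given for 17 of the 21 detected members, 19 windows in all, with none for Col1a1, Col12a1, Col14a1 and Dcn. GGGCGG was present in 13 of these 19 windows (68.4%) and in 35.7% of all 32851 windows, CCAAT in 8 (42.1%) and in 37.4%, and TATAA in 2 (10.5%) and in 24.9%. The 32851 windows were not filtered for detection, so these shares do not set the members against other detected genes. The GGGCGG match of the Col4a1 window lies in the stretch shared with the Col4a2 window and was counted in both. These counts describe the letters in the windows and do not show binding of a factor.

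The dermal members, that is the fibrillar, collagen VI and fibril-associated, and dermal matrix classes together, had nearly equal signals in the 2 samples. Of 20 genes 12 were detected, all 12 in both samples. Their summed intensity was 8414 in the knockout and 8152 in the control sample, a ratio of 1.03. The median log2 ratio was 0.07, with 7 genes above 0 and 5 below, and none past 1.2-fold. Over all detected genes 52.1% were above 0 and 5.86% past 1.2-fold in either direction, so few of 12 would be looked for past that size. The difference of the medians, dermal members minus keratinocyte-made collagens, was -0.07 on the log2 scale and -0.18 with background-corrected intensities. Without Col16a1 and Bgn, whose products keratinocytes have also been found to make, the dermal median was 0.02. Without Vim the dermal median was 0.09. The summed intensity without Vim was 7478 in the knockout and 7060 in the control sample, a ratio of 1.06. Both of these settings were chosen after seeing the data.

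Among the small proteoglycans, Bgn, which encodes biglycan, had 1355 in the knockout and 1197 in the control sample (1.13-fold, log2 ratio 0.18). Dcn, which encodes decorin, a regulator of fibril diameter, had 502.7 in the knockout and 519.2 in the control sample (log2 ratio -0.05). Its other probe gave 201.5 in the knockout and 182.1 in the control sample (log2 ratio 0.15), and its direction also turned with median scaling (0.02) and with the mean over probes (0.05), so no direction is given for Dcn.

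Fbln1 and Fbln2 encode fibulins, which connect basement membrane and elastic fibre proteins. Fbln1 had 1352 in the knockout and 1266 in the control sample (log2 ratio 0.10), and 260.6 in both samples on its other detected probe. Before normalization that probe had 309 in the knockout and 291.9 in the control sample. Fbln2 had 331.9 in the knockout and 301.4 in the control sample (log2 ratio 0.14). Sparc, which encodes the collagen-binding protein osteonectin, had 1080 in the knockout and 1048 in the control sample (log2 ratio 0.04), and on its other probe 299.6 in the knockout and 297.5 in the control sample. All of these differences lay within the spread between probes.

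Vim, the intermediate filament gene of mesenchymal cells, had the lowest ratio of the members. Its 1 probe gave 935.5 in the knockout and 1092 in the control sample, a 1.167-fold lower signal (log2 ratio -0.22). This lay just within the spread between probes, 1.168-fold. The log2 ratio stayed between -0.26 and -0.16 under the alternative settings tried, all of which used the same 2 arrays. Vimentin is also made by melanocytes, Langerhans cells, T cells and endothelium. The 5 detected of 7 melanocyte markers had a median log2 ratio of 0.03, with a summed intensity of 4695 in the knockout sample and 4652 in the control sample. For Langerhans and T cell markers the median was 0.09 over 12 of 13, with a summed intensity of 18579 in the knockout sample and 17666 in the control sample. The part of these cells in the Vim signal was not tested.

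Within the fibrillar class, Col5a1, which encodes a chain that starts type I fibrils, had 494.0 in the knockout and 459.2 in the control sample (log2 ratio 0.11). In the fibril-associated group, Col16a1, a collagen found near the dermal-epidermal junction, had 1514 in the knockout and 1413 in the control sample (log2 ratio 0.10). Col12a1 had 274.5 in the knockout and 257.4 in the control sample (log2 ratio 0.09). The signs then turned. Col14a1, another fibril-associated chain, had 188.4 in the knockout and 196.4 in the control sample (log2 ratio -0.06). Col6a1, a chain of the collagen VI microfibrils, had 216.8 in the knockout and 233.1 in the control sample (log2 ratio -0.10), while its partner chain Col6a2 was detected in neither sample.

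Col28a1, Col25a1 and Col9a2 were close to background. Col28a1 had 198.2 in the knockout and 206.2 in the control sample (log2 ratio -0.06). Col25a1 had 166.1, just above the threshold, in the knockout and 145.7 in the control sample, with a bound of 0.01 on the log2 ratio. Col9a2, a cartilage chain, had 157.6 in the knockout sample and 171.0, just above the threshold, in the control sample, with a bound of -0.04. Under a looser threshold of 0.05 on the detection p-value, 29 members were detected, and the 8 added were Col4a3, Col4a4, Col5a3, Col9a1, Col11a1, Col11a2, Col15a1 and Col23a1.

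**Figure D3:**
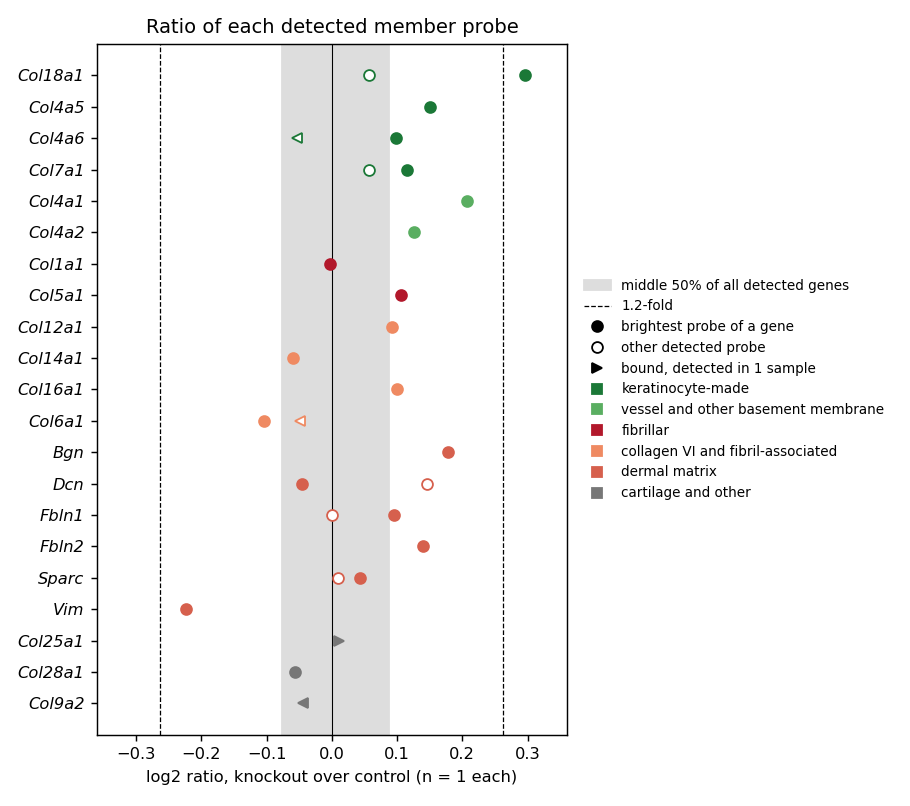
Log2 ratio of knockout over control for every detected member probe, by gene, with filled symbols for the brightest probe, open symbols for other probes and triangles for bounds where 1 sample was below detection. The grey band holds the middle 50% of all 8564 detected genes and dashed lines mark 1.2-fold, which the brightest Col18a1 probe alone passes, while Vim is the lowest at -0.22.

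Other genes of the basement membrane zone, which lie outside the members except Fbln1, showed the same sign as the keratinocyte-made collagens. Of 14 on the array 11 were detected, 10 of them above 0 on the log2 scale (52.1% of all detected genes were). The median was 0.12 and none was past 1.2-fold (5.86% of all detected genes were, in either direction). Hspg2, the perlecan gene, had 1385 in the knockout and 1175 in the control sample (log2 ratio 0.24). Itgb4, which encodes the hemidesmosomal integrin chain, had 2435 in the knockout and 2161 in the control sample (log2 ratio 0.17), and 0.005 on its other probe. Plec, the plectin gene, was at 0.15 (-0.03 on its other probe), and Col17a1, the transmembrane hemidesmosomal collagen, was at 0.07 (from -0.13 to 0.10 on its other probes). Keratinocyte markers were mixed beside these genes. Krt10 was at 0.22, whereas the basal keratins Krt14 and Krt5 were at -0.20 and -0.28, and the median over 10 markers was 0.11.

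Genes that process and cross-link collagen had a median of -0.01 over 14 detected of 30, with 6 above 0 and 8 below. Among all detected genes 52.1% were above 0 and 5.86% past 1.2-fold in either direction. Tgm2, a transglutaminase that cross-links matrix proteins, had 329.1 in the knockout and 482.5 in the control sample (log2 ratio -0.55), and was the gene of this list past 1.2-fold. Serpinh1, the collagen chaperone HSP47, had 219.5 in the knockout and 192.1 in the control sample (log2 ratio 0.19). Crtap, a partner of prolyl 3-hydroxylase, was at -0.11 (-0.06 on its other probe). P4hb, a subunit of prolyl 4-hydroxylase, was at -0.07, and Bmp1, a procollagen protease, was at 0.10 (from -0.16 to 0.10 on its other probes). The cross-linking genes Lox, Loxl1, Loxl2, Loxl3 and Loxl4 were detected in neither sample.

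Collagen receptors had a median of 0.01 over 4 detected of 9, with Ddr1 at 0.06, Cd44 at 0.05 (from -0.17 to 0.16 on its other probes) and the collagen-binding integrin Itga11 at -0.11. Matrix proteases and their inhibitors had a median of 0.04 over 5 detected of 13. In this list Timp3 was at 0.12 (0.03 on its other probe), Mmp9 at 0.11, Mmp2 at 0.01 and the membrane-bound collagenase Mmp14 at -0.15. None of these receptors, proteases or inhibitors passed 1.2-fold, against 5.86% of all detected genes in either direction.

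Fibroblast markers outside the members also had nearly equal signals in the 2 samples. Of 35 on the array 13 were detected, with a median log2 ratio of 0.02, 8 above 0 and 5 below. Their summed intensity was 6475 in the knockout sample and 6137 in the control sample. Among all detected genes 52.1% were above 0 and 5.86% past 1.2-fold in either direction. Pdgfra, Pdgfrb, Dpt, Postn, Eln and Twist2, which mark dermal fibroblasts, were among the 22 detected in neither sample. Tnc, the tenascin-C gene, had 1424 in the knockout and 1180 in the control sample (1.21-fold, log2 ratio 0.27, and 0.16 on its other probe), and was the gene of this list past 1.2-fold. Igfbp4 was at 0.07 (0.10 on its other probe) and Mfap2 at 0.13 (from -0.06 to 0.15 on its other probes). Tnxb, the tenascin-X gene, was detected in the control sample and had a bound of -0.21.

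Markers of other cell types of the skin and the tissue beneath it were detected in differing shares. Pericyte and smooth muscle markers had a median of -0.09 over 3 detected of 8, namely Mcam at -0.24 (from -0.14 to -0.02 on its other probes), Acta2 at -0.09 (from -0.14 to -0.11) and Cspg4 at 0.14, with a summed intensity of 762.3 in the knockout sample and 810.8 in the control sample. For skeletal muscle the median was 0.07, over 6 of 13 markers, with the calcium pump gene Atp2a1 at 0.17, Tnni2 and Mylpf at -0.02 each, Myl1 at 0.09 and Pvalb at a bound of 0.09, and a summed intensity of 1300 in the knockout sample and 1217 in the control sample. Adipocyte markers had a median of -0.34 over 3 detected of 9, with Cfd at -0.36, Pparg at -0.34 (-0.03 on its other probe) and Lpl at 0.14. Cfd and Pparg lay past 1.2-fold, against 5.86% of all detected genes in either direction. Adipoq, Fabp4 and Plin1 were detected in neither sample. Among dermal papilla markers 3 of 10 were detected, with Sostdc1 and Trps1 both at 0.11 and a bound of -0.06 for Ngfr. Of the melanocyte markers, Ednrb was at 0.10, Tyrp1 at 0.06 (from 0.07 to 0.19 on its other probes), Dct at 0.03, Pmel at -0.04 (-0.06 on its other probe) and Mlana at -0.10. In the list of Langerhans and T cell markers, Coro1a was at 0.34 on its brightest probe and near -0.06 on its others, H2-Aa at 0.23, Nkg7 at -0.24, H2-Ab1 at 0.12 (from -0.05 to 0.02) and Cd74 at 0.03 (-0.06 on its other probe). Coro1a was the gene of this list past 1.2-fold.

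**Figure D4:**
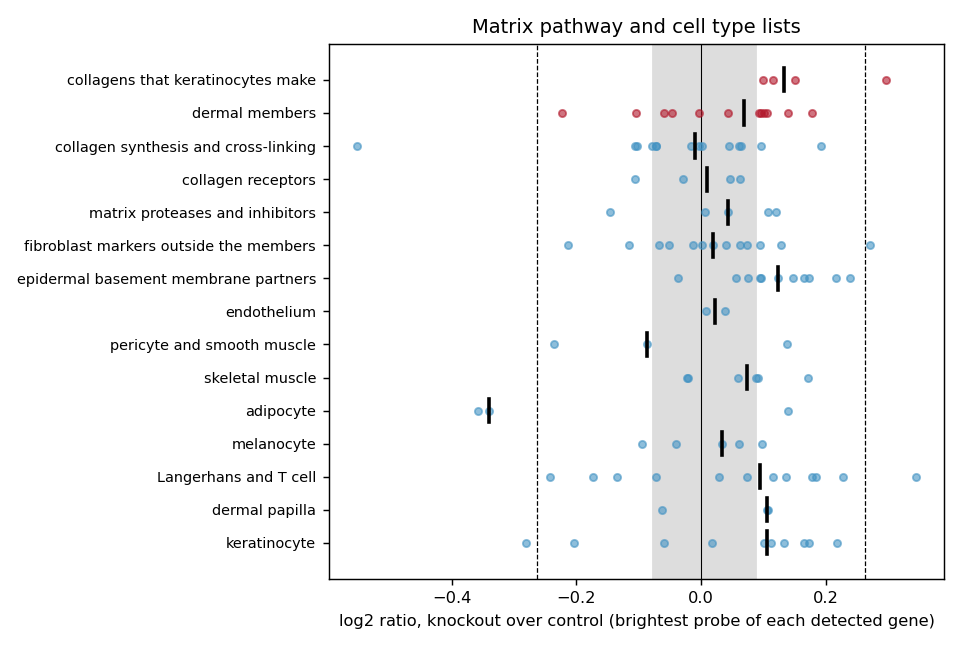
Log2 ratio of knockout over control for each detected gene (points) and the list median (black bars), for keratinocyte-made collagens, dermal members, other matrix lists and markers of cell types. The medians of dermal members (0.07) and of fibroblast markers (0.02) lie inside the grey band of the middle 50% of all detected genes, those of keratinocyte-made collagens (0.13), basement membrane partners (0.12), keratinocyte markers (0.11), dermal papilla markers (0.11) and Langerhans and T cell markers (0.09) lie above it, and those of pericyte and smooth muscle markers (-0.09) and adipocyte markers (-0.34) lie below it.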

How the data were processed

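Epidermal RNA of 1 knockout and 1 control pool was measured on Illumina bead arrays. The authors deposited intensity tables before and after normalization and a detection p-value for each probe, per the file headers; the submitters' processing notes name GenomeStudio 2011.1. The normalization steps are not given in the sources used here. The deposited series value table was identical to the normalized intensity table (largest difference 0). Normalized intensities, with medians of 148.9 on both arrays and a minimum of 106.2, had no background subtracted.

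Intensities were raised to a floor, the dimmest signal on that array with a detection p-value not above 0.01, and log2 transformed. A gene entered if a probe was detected in at least 1 sample. Ratios are knockout over control, and a ratio with 1 undetected side is a bound. Symbols were updated through gene ID or accession against RefSeq genes of GRCm38.p6 (24358 probes matched, 1339 kept the file's symbol). Members and lists were chosen with earlier results of these data known. Every detected member was named, and of each other list the 3 genes with the largest absolute ratio and the 2 brightest; some genes this rule selects are not reported here, and names outside it, such as undetected markers, were chosen after their values were seen. Sizes of 1.5-fold and 1.2-fold were counted beside all genes. The ratio procedure was tested on simulated data. Alternatives were no floor, median scaling, loess centring, background correction with limma 3.58.1 (R 4.3.3), other detection rules and the mean over probes. Python 3.11.15, pandas 2.3.3 and statsmodels 0.14.6 were used.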

Additional observations from a re-analysis of the deposited data

How the results depend on the processing

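No paired analysis was possible because each group holds 1 sample. Shifts of at least 0.11 (log2), the SD of single probe ratios, are listed; this is not the spread of a median, so a smaller shift is no sign of stability, and ranges are given instead. The count of members past 1.5-fold was 0 under all 8 settings. The count past 1.2-fold was 2 with median scaling (Col18a1 and Col4a1), 2 with background correction (Col18a1 and Col4a6) and 0 with the mean over probes, against 1. Of all genes, 6.56% were higher and 2.03% lower past this size with median scaling. The shares were 10.5% and 10.2% with background correction, and 2.36% and 2.66% with the mean over probes. With background correction the median of keratinocyte-made collagens was 0.26, dermal minus keratinocyte-made medians was -0.18, and the pericyte and skeletal muscle medians were -0.24 and 0.20. The adipocyte median was -0.19 with the mean over probes and 0.0087 without a detection filter, which sets undetected genes to the floor on both arrays. Of single members, Col4a6 was at 0.29 and Col6a1 at -0.23 with background correction, against 0.10 and -0.10. Col25a1 was at 0.19 without a floor and at 0.14 with a detection p-value of 0.05, against 0.01. Col18a1 was at 0.18 with the mean over probes, against 0.30. Over the alternatives the dermal median ran from 0.01 to 0.13, that of keratinocyte-made collagens from 0.12 to 0.26 and that of all members from 0.01 to 0.14. Signs of small values also turned: the collagen VI and fibril-associated median was -0.02 with background correction, the collagen processing median 0.01 with median scaling, the receptor median -0.02 without a floor or with background correction, and Col1a1 0.004 with median scaling. The receptor median was -0.01 with the mean over probes. With a detection p-value of 0.05 the endothelial median was -0.009 and the collagen processing median 0.0009. Without a detection filter the pericyte, cartilage and collagen processing medians were each 0.0087. Over all genes, 249 were higher and 253 lower past 1.2-fold, against 562 and 174 with median scaling, which moved the median of all genes to 0.05, and 902 and 873 with background correction. With median scaling 65.0% of all detected genes and 16 of 21 members had a log2 ratio above 0. Past 1.5-fold the counts were 16 and 20, against 116 and 111 with background correction. Dim signals such as Col1a1 and Col4a6 lie near the floor, where a difference could not be resolved.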
